A study of Homo sapiens with 22 samples.

Results

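The accessible chromatin of PC3 cells was compared with the histone mark H3K27ac in the same cell line. Each of the 210960 regions in the PC3 ATAC-seq list and each of the 90468 regions in the PC3 H3K27ac ChIP-seq list was placed in a class by whether it overlapped a region of the other list by at least 1 bp. The classes were accessible with H3K27ac, accessible without H3K27ac, and H3K27ac without ATAC. Together both lists held 301428 of the 871377 regions in the 22 lists of the series. Regions that overlapped a window of 1 kb on either side of the start of a protein-coding transcript were called promoter regions and all others distal, so that promoters of noncoding genes count as distal.

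The study examined how the pioneer factor FOXA2 and the AP-1 subunits JUN and FOSL1 bind chromatin in prostate cancer cell lines. PC3 is a human prostate cancer line derived from a bone metastasis, and the NCI-H660 line is of the neuroendocrine kind. The lists used were the ATAC, H3K27ac and FOXA2 lists of vehicle-treated PC3 cells, the JUN and FOSL1 lists of PC3 cells with a negative control siRNA (siNC), and the ATAC and H3K4me2 lists of vehicle-treated NCI-H660 cells. FOXA2 had also been profiled in PC3 cells after 4 h of ORY-1001 at 10 µM or of C12 at 0.5 µM, both inhibitors of the demethylase LSD1, and JUN and FOSL1 after an siRNA against FOXA2 (siFOXA2). Each of these groups held 1 list, from 1 library as far as the labels tell, so no comparison had a replicate and no p-value was computed. Another group of FOXA2 ChIPs from vehicle-treated PC3 cells, whose antibody was not labelled, held 2 lists and served as an alternative for FOXA2. The JUN and FOSL1 lists came from siRNA-transfected cells. For ATAC and H3K27ac the labels give vehicle, although the names under which both lists were deposited mention a control siRNA. Every PC3 assay carried a different processing folder in its region names, so that assay, batch and transfection cannot be told apart. The intervals in parentheses are 95% intervals (Wilson for a share, Newcombe for a difference of shares) and cover counting error only. Read depth was unknown, so a region missing from a list may only have been too weak to be listed.

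Nucleosomes next to active promoters and enhancers carry acetylation at lysine 27 of histone H3, and the DNA between them is open to transposase and to transcription factors. H3K27ac marks active elements, while open chromatin also includes elements that are poised, bound by insulator proteins such as CTCF, or only weakly exposed. FOXA2 is a forkhead factor that can bind its site on nucleosomal DNA, and AP-1 is a dimer of JUN and FOS family proteins that often binds enhancers.

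The sequences below show what was searched for in each class. They lie around the AP-1, forkhead or CTCF site nearest the centre of the highest-scoring distal accessible region that held one, taken outside places listed in 17 or more of the 22 lists. Each is shown on the plus strand of hg19 with 45 bases on either side, and capitals mark the site. The NRP1 stretch holds a further AP-1 match in lower case, and in the KIF5C stretch a further forkhead match overlaps the end of the marked one.
AP-1 site, with H3K27ac, chr10:33423154-33423250, intergenic near NRP1: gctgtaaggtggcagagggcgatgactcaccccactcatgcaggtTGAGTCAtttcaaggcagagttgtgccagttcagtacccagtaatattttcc
forkhead site, with H3K27ac, chr10:76559743-76559839, intergenic near KAT6B: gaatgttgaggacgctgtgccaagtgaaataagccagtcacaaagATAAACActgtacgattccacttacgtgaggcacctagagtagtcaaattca
CTCF site, with H3K27ac, chr10:75639541-75639642, intergenic near CAMK2G: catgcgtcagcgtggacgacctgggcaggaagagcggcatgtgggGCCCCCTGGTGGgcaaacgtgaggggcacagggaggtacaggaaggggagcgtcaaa
AP-1 site, without H3K27ac, chr10:81200554-81200650, intron near ZCCHC24: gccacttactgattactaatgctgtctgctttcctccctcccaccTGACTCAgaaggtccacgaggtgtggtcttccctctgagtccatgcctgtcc
forkhead site, without H3K27ac, chr2:149639341-149639437, intron near KIF5C: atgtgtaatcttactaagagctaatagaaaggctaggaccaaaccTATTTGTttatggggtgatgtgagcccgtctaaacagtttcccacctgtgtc
CTCF site, without H3K27ac, chr20:62762891-62762992, intron near MYT1: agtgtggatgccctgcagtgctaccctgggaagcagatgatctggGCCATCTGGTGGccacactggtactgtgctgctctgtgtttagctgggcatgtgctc

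The NRP1, KAT6B and CAMK2G regions overlapped JUN regions, and the NRP1 and KAT6B regions overlapped FOSL1 regions too. FOXA2 overlapped the KAT6B region alone among the 6. Of the regions without H3K27ac, the ZCCHC24 region overlapped JUN and FOSL1, whereas the KIF5C and MYT1 regions overlapped none of these factors. The KIF5C region was 132 bp wide with a score of 58655, and was listed in 3 lists, whereas the median distal region without H3K27ac was 182 bp wide and scored 61.0, and whether reads of other genomic copies map to it was not tested. Among all distal regions with a forkhead site the highest score with H3K27ac belonged to chr1:121484057-121485433, which was listed in all 22 lists, and the highest-scoring AP-1 region without H3K27ac, chrX:125606335-125607102, was listed in 17.

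H3K27ac was present at most accessible promoters and at a minority of distal accessible regions. Of all ATAC regions 31.4% overlapped H3K27ac (66205 regions, 31.2 to 31.6%). At promoters the share was 74.2% (16087 of 21672, 73.6 to 74.8%), and at distal regions it was 26.5% (50118 of 189288, 26.3 to 26.7%). Seen from the other list, 71.4% of H3K27ac regions overlapped an ATAC region (64570 regions, 71.1 to 71.7%), with 94.1% of promoter regions (93.7 to 94.4%) and 66.4% of distal regions (66.0 to 66.7%). Promoters therefore made up 24.3% of accessible regions with H3K27ac and 3.86% of those without.

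Accessible regions with H3K27ac were wider and scored higher in the ATAC list than those without. The score is the whole number deposited for each region, taken from its range to be 10 times a −log10 q-value. The median width was 388 bp at distal regions with H3K27ac (quartiles 266 to 533 bp) and 182 bp at those without (142 to 251 bp). The median ATAC score was 512 with the mark (quartiles 208 to 1104) and 61.0 without (33.0 to 162). At promoters the median width was 730 bp with H3K27ac and 194 bp without, and the median score was 1181 against 63.0. Mean GC content within 100 bp of the centre was 66.0% at promoters with the mark and 56.5% at those without, while distal regions had 46.4% and 48.0%. In position relative to genes the distal classes differed little. The centre lay in an intron of a protein-coding gene in 46.2% of distal regions with H3K27ac and in 44.5% of those without, and the median distance to the nearest protein-coding start was 41.2 kb and 42.2 kb.

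The mark flanked the accessible site more often than it covered its centre. At distal ATAC regions that overlapped a JUN region, 50.4% had H3K27ac at the central base, 66.9% at 300 bp before it and 67.0% at 300 bp after it. For distal regions with FOXA2 and no JUN the values were 25.2% at the centre and 39.0% at 300 bp after it. Distal regions with none of the 3 factors had 11.9% at the centre and 13.1% at 300 bp after it. At promoters the centre and the flanks were nearly level, with 62.5% at the centre and 63.8% at 250 bp after it. By 2000 bp the share had dropped to 5.21% at JUN regions and to 4.93% at promoters. Of all ATAC regions 2.81% overlapped 2 or more H3K27ac regions, and these had a median ATAC score of 1392. Of the H3K27ac regions 63.7% held 1 ATAC region, 7.07% held 2 and 0.633% held 3 or more, with median widths of 715, 1378 and 1980 bp.

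**Figure D1:**
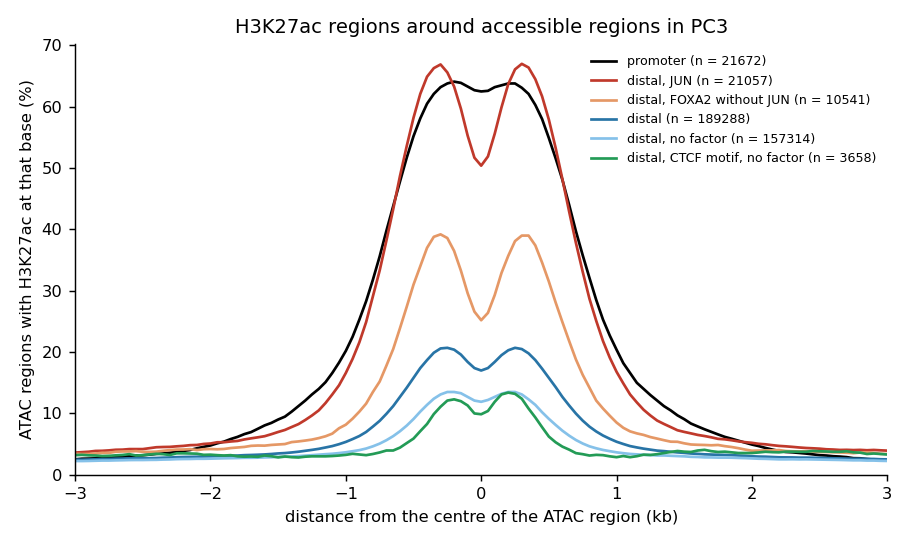
Share of PC3 ATAC regions (%) with an H3K27ac region at each distance (kb) from the centre of the ATAC region, for promoter regions, all distal regions, and distal regions grouped by overlap with JUN, FOXA2 or neither and by a CTCF motif. Lines for distal regions with JUN dip from 67.0% at the flank to 50.4% at the centre, whereas the promoter line stays near 63%.

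The H3K27ac share rose with the ATAC score in every decile. Among distal regions it was 2.63% in the lowest decile of scores (13 to 26), 12.8% in the fifth, 42.8% in the eighth and 80.3% in the highest (931 and above). Promoters were higher at each step, with 16.9% in the lowest decile and 99.4% in the highest. Only 12 of the 2167 top-decile promoter regions lacked the mark. By width the distal share ran from 4.97% in the narrowest decile (113 to 127 bp) to 83.1% in the widest (489 to 3263 bp). Score, width and H3K27ac thus moved together, and the main comparisons between the classes are given both plain and standardised over the score deciles of the ATAC list.

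**Figure D2:**
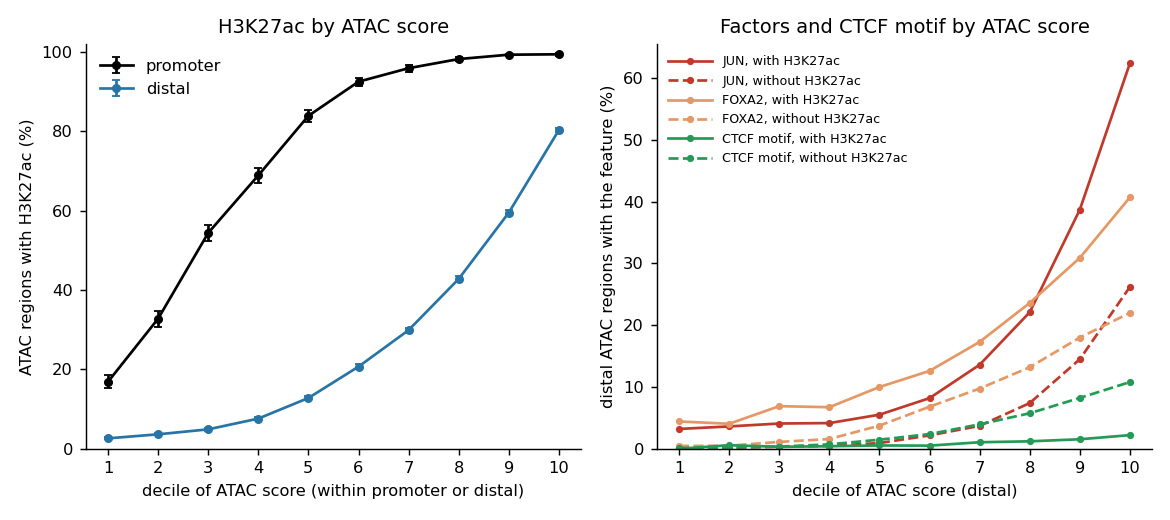
Left, share of PC3 ATAC regions with H3K27ac (%) by decile of ATAC score within promoter and within distal regions, with Wilson 95% intervals. Right, share of distal ATAC regions (%) that overlap JUN or FOXA2 or hold a CTCF motif, in regions with H3K27ac (solid) and without (dashed). The distal share climbs from 2.63% to 80.3%, and within the top decile JUN stands at 62.4% with the mark and 26.2% without, while the CTCF motif stands at 2.21% and 10.8%.

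FOXA2, JUN and FOSL1 regions were all more frequent at distal accessible regions with H3K27ac. Over all ATAC regions, 10.3% overlapped a FOXA2 region, 11.0% a JUN region and 1.48% a FOSL1 region. JUN overlapped 33.9% of distal regions with the mark (17002 of 50118, 33.5 to 34.3%) and 2.91% of those without (2.83 to 3.0%), a difference of 31.0 percentage points (30.6 to 31.4). FOXA2 overlapped 26.9% (26.6 to 27.3%) and 5.19% (5.08 to 5.31%), a difference of 21.8 points (21.4 to 22.2). With the other vehicle FOXA2 lists, of 77822 and 62714 regions, the FOXA2 difference was 35.7 and 33.1 points, so whether it was below or above that of JUN depended on the list. FOSL1, whose list was the shortest, overlapped 4.40% (4.23 to 4.58%) and 0.405% (0.373 to 0.440%), a difference of 4.00 points (3.82 to 4.18). Standardised over score deciles the differences were 11.0 points for JUN, 8.0 for FOXA2 and 2.15 for FOSL1, so each kept its direction and less than 3 in 5 of its size. Places listed in 17 or more lists were 0.846% of distal regions with H3K27ac and 0.00790% of those without. Leaving them out lowered the FOSL1 difference to 3.16 points.

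At promoters the factors were rarer and the ATAC score mattered more. JUN overlapped 12.2% of promoter regions with H3K27ac (11.7 to 12.7%) and 1.52% of those without (1.23 to 1.88%), and the standardised difference was 0.317 points. FOXA2 overlapped 4.74% (4.43 to 5.08%) and 2.56% (2.18 to 3.01%), and here the standardised difference turned to −5.28 points. FOXA2 was less frequent with the mark in each score decile from the third up, with 1.70% against 3.14% in the third and 5.38% of 2155 against 3 of 12 regions in the highest. Each decile weighs about the same, so the score-standardised values at promoters, that of JUN included, rest in part on few regions without the mark. FOSL1 overlapped 2.19% and 0.179%. Read the other way, H3K27ac was present at 71.5% of promoter regions with no factor (70.9 to 72.2%), at 80.4% with FOXA2 alone (76.8 to 83.6%) and at 97.0% with JUN alone (96.1 to 97.8%).

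Grouped by the factors present, the H3K27ac share at distal accessible regions was lowest with no factor and highest with all 3. It was 17.8% with no factor (27927 of 157314, 17.6 to 17.9%), 48.1% with FOXA2 alone (47.2 to 49.1%) and 78.1% with JUN alone (77.3 to 78.9%). FOXA2 and JUN together without FOSL1 gave 81.6% (80.7 to 82.4%), JUN and FOSL1 without FOXA2 gave 87.7% (85.3 to 89.8%), and all 3 gave 90.3% (1318 of 1460, 88.6 to 91.7%). FOSL1 alone stood at 32.2% (27.7 to 37.1%) over 376 regions. The median ATAC score was 69.0 with no factor, 320 with FOXA2 alone, 776 with JUN alone, 1736 with all 3 and highest, at 1976, with JUN and FOSL1 without FOXA2. Within the highest score decile the shares were closer together, with 65.0% for no factor (63.9 to 66.1%), 79.8% for FOXA2 alone (77.6 to 81.9%), 90.7% for JUN alone (89.8 to 91.5%) and 95.5% for all 3 (94.1 to 96.7%). In that decile FOXA2 and JUN together without FOSL1 stood at 89.2% (88.3 to 90.1%), slightly below JUN alone, and no interval for this difference was computed.

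**Figure D3:**
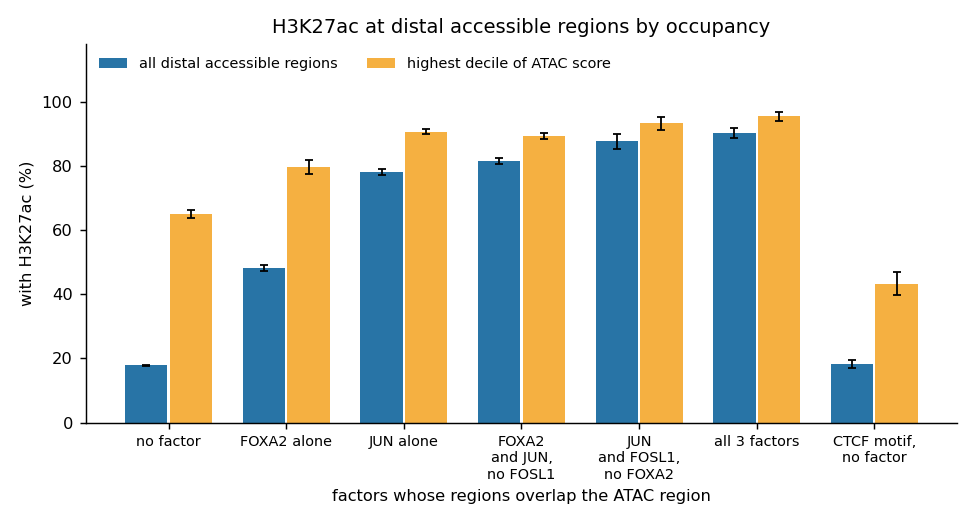
Share of distal PC3 ATAC regions with H3K27ac (%) by which factor regions they overlap, for all such regions (blue) and for the highest decile of ATAC score (orange). Bars start at 0 and lines are Wilson 95% intervals. JUN alone stands at 78.1% and FOXA2 alone at 48.1%, and regions with a CTCF motif and no factor stay at 43.2% even in the highest decile.

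A motif was counted when either strand held it no more than 100 bp from the centre of a region. AP-1 was searched as TGACTCA, TEAD as CATTCCA, RUNX as TGTGGTT, ETS as CCGGAAG, SP as GGGCGGG, NRF1 as GCGCATGCG, NFY as CCAATCA and CRE as TGACGTCA. The forkhead motif was T, then A or G, then TTT, then A or G, then C or T, and CTCF was searched by a core of its consensus. None of these motifs contains another. Over all ATAC regions the shares were 16.9% for AP-1, 29.8% for forkhead, 4.65% for TEAD, 4.85% for RUNX, 1.87% for CTCF, 1.59% for ETS, 5.42% for SP, 0.153% for NRF1, 2.58% for NFY and 0.238% for CRE.

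At distal regions AP-1 and forkhead motifs were more frequent with H3K27ac, and CTCF was less frequent. AP-1 was found in 27.8% of distal regions with the mark (27.5 to 28.2%) and in 14.6% of those without (14.5 to 14.8%), against 3.31% and 3.07% in windows 2 kb away. The difference was 13.2 points (12.8 to 13.6), and 3.49 points when standardised over score deciles. Forkhead was found in 38.1% and 29.7%, a difference of 8.32 points (7.83 to 8.81) that was 3.29 points when standardised, and in 32.0% and 31.1% of windows 2 kb away. Distal regions without H3K27ac therefore held this short motif no more often than the DNA near them. The stricter forkhead motif TGTTTAC differed by 1.21 points. TEAD, a family whose factors often bind beside AP-1, was found in 5.71% and 4.68%. RUNX was found in 5.52% and 5.03%, and its small difference changed sign when standardised over score deciles (−0.198 points).

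Occupancy was more frequent with the mark both where the motif was present and where it was not. Among distal regions that held the AP-1 motif, JUN overlapped 51.0% with H3K27ac (50.2 to 51.9%) and 9.75% without (9.35 to 10.2%). In distal regions that lacked the motif the shares were 27.3% and 1.74%. At promoter regions with the AP-1 motif JUN overlapped 48.9% (45.5 to 52.4%) and 8.32% (6.19 to 11.1%). FOXA2 overlapped 44.1% of distal forkhead-motif regions with the mark (43.4 to 44.8%) and 13.6% of those without (13.3 to 14%), and 16.4% and 1.62% of distal regions that lacked the motif. Of distal regions with the AP-1 motif and JUN, 78.2% had H3K27ac (77.3 to 79.0%), and with the AP-1 motif but no JUN 27.1% had it (26.5 to 27.6%). A forkhead motif beside the AP-1 motif went with no difference beyond the intervals. H3K27ac was present at 40.7% of regions with both (39.8 to 41.5%) and at 40.6% of those with AP-1 and no forkhead motif (40.0 to 41.3%). With a forkhead motif and no AP-1 motif the share was 29.2%, and with neither it was 20.7%.

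CTCF binds insulators and the anchors of chromatin loops. Its motif was found in 1.42% of distal regions with H3K27ac (1.32 to 1.53%) and in 2.18% of those without (2.1 to 2.26%), a difference of −0.757 points (−0.884 to −0.626) that widened to −2.57 points when standardised over score deciles. NFY was the other motif less frequent with the mark, in 2.23% against 2.52% of distal regions, a difference of −0.289 points (−0.440 to −0.133) that was −0.274 points when standardised. In the highest decile of distal scores, the CTCF motif was found in 2.21% of regions with the mark and 10.8% of those without. Of the 741 top-decile distal regions with a CTCF motif, 45.3% had H3K27ac (41.8 to 48.9%), whereas 85.6% of the top-decile regions with an AP-1 motif had it (84.7 to 86.5%). Factor regions were rare at CTCF motifs. JUN overlapped 4.35% of distal CTCF-motif regions with H3K27ac and 0.461% of those without, and FOXA2 overlapped 3.65% and 0.857%.

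Promoter regions held other motifs. SP, the site of SP and KLF factors, was found in 35.3% of promoter regions with H3K27ac (34.6 to 36.1%) and in 11.7% of those without (10.9 to 12.5%), and ETS in 8.99% and 1.68%. NRF1, a regulator of genes for mitochondrial function, was found in 1.36% and 0.0716%, and CRE in 1.29% and 0.394%. AP-1 was less frequent at promoters with the mark (4.99% against 8.83%), as was forkhead (9.34% against 17.5%). Promoters with H3K27ac were richer in GC. Standardised over deciles of GC content, the SP difference fell from 23.7 to 7.79 points, and the AP-1 and forkhead differences turned from −3.84 and −8.13 to 0.911 and 1.03 points. Standardised over score deciles, AP-1 and forkhead differed by −5.32 and −10.8 points instead.

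**Figure D4:**
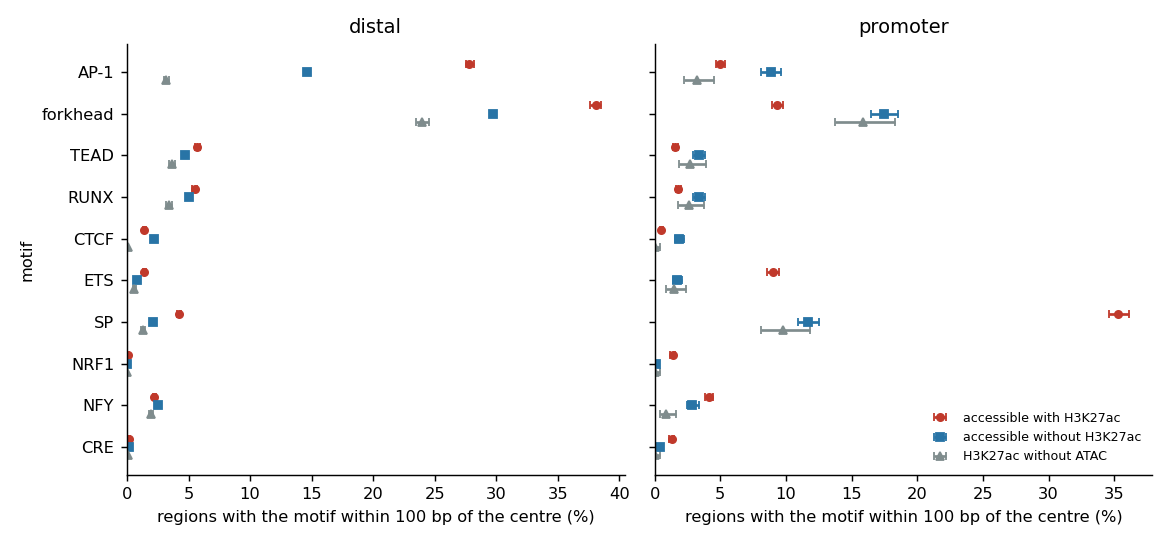
Share of PC3 regions (%) that hold each of 10 motifs within 100 bp of the centre, at distal (left) and promoter regions (right), by class, with Wilson 95% intervals. AP-1 stands at 27.8% and 14.6% in the distal accessible classes with and without H3K27ac and at 3.21% in distal H3K27ac regions without ATAC, and SP at 35.3% and 11.7% at accessible promoters.

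H3K27ac regions without ATAC mostly lay right beside accessible chromatin. Of the 25898 such regions (28.6% of the H3K27ac list), 24928 were distal and 970 at promoters. The median gap to the nearest ATAC region was 0.205 kb (quartiles 0.0730 to 0.926 kb), and 66.8% lay within 500 bp of one (66.2 to 67.3%). In comparison, the median gap from a distal accessible region without H3K27ac to the nearest H3K27ac region was 12.7 kb, and 8.99% lay within 500 bp. Another H3K27ac region lay within 1000 bp of 56.8% of the H3K27ac regions without ATAC and of 38.7% of those with ATAC. They were narrow and weak in their own list, with a median width of 333 bp and a median score of 62.0, against 778 bp and 221 for H3K27ac regions with ATAC. The highest-scoring one at a promoter, chr10:63660948-63662241, was 1294 bp wide at the start of ARID5B, a chromatin regulator, and its edge was 5 bp from an ATAC region.

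Few of these regions overlapped a factor region, and they held the AP-1 motif no more often than the DNA nearby. In the distal ones JUN overlapped 3.23% (3.02 to 3.46%), FOXA2 5.13% (4.86 to 5.41%) and FOSL1 0.513% (0.432 to 0.610%). Distal accessible regions without H3K27ac had similar shares, 2.91%, 5.19% and 0.405%. These were 806 regions with JUN and 1278 with FOXA2. Yet only 200 distal JUN and 393 distal FOXA2 regions overlapped H3K27ac and no ATAC region, so many of the factor regions also reached an ATAC region. AP-1 was found in 3.21% (2.99 to 3.43%) and in 3.44% of windows 2 kb away. Forkhead was found in 24.0% against 35.4% nearby, and CTCF in 0.0481% against 0.0842%. A group of 2560 distal regions, 10.3% of them, lay at least 5000 bp from any ATAC region, with a median width of 308 bp and a median score of 47.0. JUN or FOXA2 overlapped 5.51% of this group (4.69 to 6.46%).

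The factor lists themselves fell largely into the class with both marks. Of 21873 distal JUN regions, 77.4% overlapped an accessible region with H3K27ac (76.9 to 78.0%), 18.3% an accessible region without it and 0.914% an H3K27ac region alone, and 3.32% overlapped neither list. For 23082 distal FOXA2 regions the shares were 58.3% (57.6 to 58.9%), 31.0%, 1.70% and 9.05%. For 3483 distal FOSL1 regions they were 62.2% (60.5 to 63.8%), 15.4%, 3.56% and 18.8%. JUN regions at accessible sites had a median JUN score of 172 with H3K27ac and 114 without, and FOXA2 regions 184 and 134. At promoters 94.5% of JUN regions and 76.0% of FOXA2 regions overlapped accessible chromatin with H3K27ac.

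FOXA2 regions in accessible chromatin with H3K27ac were found again under LSD1 inhibition more often than those without. Of the distal ones with the mark, 47.8% overlapped a FOXA2 region of ORY-1001-treated cells (47.0 to 48.6%), against 22.5% of those without (21.6 to 23.5%). Under C12 the shares were 39.0% (38.2 to 39.9%) and 18.4% (17.5 to 19.3%). Standardised over deciles of the FOXA2 score, the differences were 17.9 points under ORY-1001 and 11.6 points under C12. At promoters 53.2% of FOXA2 regions with the mark (49.6 to 56.8%) and 25% of those without (18.7 to 32.5%) were found again under ORY-1001. The 5249 distal regions with the mark that were found again under C12 had a median FOXA2 score of 379 in vehicle-treated cells, against 124 for the 8202 that were not. The classes come from vehicle-treated cells, and H3K27ac and ATAC under the inhibitors were not analysed here.

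Distal JUN regions with the mark were also found again more often under siFOXA2. The JUN list of siFOXA2 cells held 4081 regions, against 13732 in the FOXA2 list under ORY-1001. The sizes of the differences are therefore not comparable between the treatments. Of distal JUN regions in accessible chromatin with H3K27ac 15.4% overlapped a JUN region of siFOXA2 cells (14.9 to 16.0%), and of those without 6.16% did (5.46 to 6.94%). The difference standardised over deciles of the JUN score was 3.63 points. At promoters the shares were 8.08% and 6.98%, with intervals that overlap (6.94 to 9.38% and 3.24 to 14.4%), and the standardised difference was −1.80 points. The 200 distal JUN regions in H3K27ac without ATAC had the highest share, 43.0% (36.3 to 49.9%). The 86 found again overlapped a median of 13 of the 22 lists, whereas the 114 not found again overlapped a median of 3. For distal FOSL1 regions the shares were 10.3% with H3K27ac and 4.65% without, but the difference standardised over deciles of the FOSL1 score was −2.96 points. Without places listed in 17 or more lists, which were 17.2% of the distal FOSL1 regions in accessible chromatin with H3K27ac, the shares were 1.56% (1.08 to 2.25%) and 3.78% (2.46 to 5.77%). The 22 lists counted include the FOSL1 list of siFOXA2 cells and the H3K27ac list. Leaving such places out thus removes marked regions that were found again more readily, and lowers the first share in part by construction.

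Accessible regions with H3K27ac were shared with NCI-H660 cells more often than those without, most of all at promoters. At promoters 87.6% of regions with the mark overlapped an NCI-H660 ATAC region (87.1 to 88.1%), against 32.7% without (31.5 to 33.9%), and the difference of 54.9 points was 30.1 points when standardised over score deciles and 18.9 points over width deciles. At distal regions the shares were 27% (26.6 to 27.4%) and 11.5% (11.3 to 11.6%), and the difference of 15.5 points was 6.15 points when standardised over score deciles. H3K4me2 in NCI-H660, a mark of promoters and enhancers, overlapped 20.1% and 5.65% of the distal classes. In the highest score decile 79.5% of shared distal regions had H3K27ac (78.5 to 80.4%) and 80.8% of unshared ones (80.1 to 81.5%). No interval for this small difference was computed.

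Of 19802 protein-coding genes, 66.7% had an accessible promoter region with H3K27ac (13211 genes, 66.1 to 67.4%). A further 10.2% had an accessible promoter without the mark (2015 genes), 0.672% had both within the window without overlap (133 genes), 0.747% had H3K27ac alone (148 genes) and 21.7% had neither (4295 genes). JUN lay in the promoter window of 15.9% of the genes with both and of 0.546% of those accessible without H3K27ac, and FOXA2 of 7.14% and 1.29%. No gene with neither had a JUN region there. The lists of genes described next were drawn up with earlier results of these data known. Their counts of accessible promoters with H3K27ac are read against the 66.7%. Counts of genes with JUN at the promoter are read against 10.7% of all genes (2123 of 19802).

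All 12 housekeeping genes, among them ACTB, GAPDH and TBP, had accessible promoters with H3K27ac. So did all 18 mesenchymal and invasion genes, and in 8 of them, such as VIM, CD44 and PLAU, a JUN region lay in the promoter window. Among the 12 genes of the YAP and TEAD group, all had the state with both marks, and 7 had JUN at the promoter, including CCN2, ANKRD1 and YAP1 itself. Genes with JUN at the promoter were 44.4% of the mesenchymal list, 58.3% of the YAP and TEAD list and 8.33% of the housekeeping list. Over all genes the share was 10.7%. The median number of distal accessible H3K27ac regions nearest to a gene was 5.50 for the mesenchymal list and 7.5 for the YAP and TEAD list, against 1.00 over all genes. These numbers are not adjusted for the span of DNA nearest to a gene. Of the distal accessible regions nearest to the genes of these lists, 38.9% and 39.1% had the mark. The share was 39.2% for the housekeeping genes and 26.5% over all genes. Of the 12 AP-1 subunit genes, 11 had the state with both marks and BATF had neither. JUN, JUND, FOSL1, FOSL2 and ATF3 each had JUN and FOSL1 regions at their own promoters. FN1, which encodes fibronectin, had 18 distal accessible regions with H3K27ac and 14 without, and NRP1 had 55 and 94.

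Lineage genes of other prostate states were split. Of 12 luminal genes, 8 had accessible promoters with H3K27ac, including FOXA1 and HOXB13, while KLK2, KLK4 and TRPM8 were accessible without the mark and KLK3, which encodes prostate-specific antigen, had neither. Of 14 neuroendocrine genes, 5 had both marks (SYP, ENO2, POU3F2, ONECUT2 and DLL3), while 5 were accessible without H3K27ac, INSM1, CHGB, NCAM1 and SCG3 among them, and CHGA, NEUROD1 and SRRM4 had neither. Only 14.2% of the distal accessible regions nearest to the neuroendocrine genes had the mark, against 26.5% over all genes. INSM1 alone had 27 distal accessible regions without it and 1 with it. Among 10 basal genes, 4 had both marks (KRT15, ITGB4, S100A2 and NGFR). KRT5 and KRT17 were accessible without H3K27ac, and 4 had neither, KRT14 and TP63 among them.

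Most promoters of the developmental and tissue genes were in neither list. Of 14 developmental regulators, 4 had both marks, PAX6, LHX2 and DLX5 among them, PAX2 and OTX2 were accessible without H3K27ac, and 8 had neither. Few of the distal accessible regions nearest to the developmental regulators carried the mark, 10 with it and 149 without (6.29%), and OTX2, TBX5 and PAX2 had 35, 21 and 16 without and none with it. Of 14 genes of other tissues, GFAP and TTN had both marks, MYH6, CRYAA and DES were accessible without H3K27ac, and 9 had neither, ALB, INS and HBB among them. Their distal accessible regions numbered 22 with the mark and 42 without (34.4%), and those of the basal genes 34 and 63 (35.1%), against 26.5% over all genes. Single loci held most of the marked ones, with TP63 at 21 of the 34, and TTN and CRYAA at 9 and 7 of the 22. No interval was computed for these shares.

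**Figure D5:**
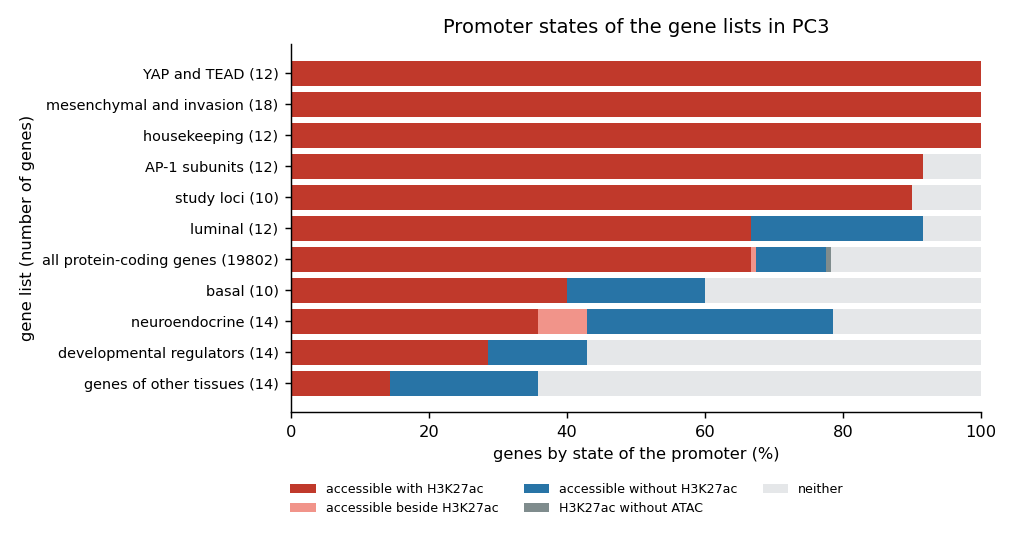
Share of genes (%) in each promoter state for the 10 gene lists and all protein-coding genes, with the number of genes in parentheses. Housekeeping, mesenchymal and YAP and TEAD genes fill the state accessible with H3K27ac, against 66.7% of all genes, 35.7% of the neuroendocrine list and 14.3% of the genes of other tissues.

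Genes that the study examined individually differed in how their surrounding accessible regions divided. Promoters of FOSL1, PTHLH, WNT7A, CCBE1, CEP55, CDK1, NDC80, INCENP and ERCC6L were accessible with H3K27ac, and that of TP63 had neither. Within 50 kb of a start, CEP55, which acts in cell division, had 11 accessible regions with the mark and 2 without, and 5 of the 11 overlapped JUN. These windows reach into neighbouring genes, and no distal marked region had CEP55 as its nearest gene. FOSL1 had 14 and 10, with JUN at 4 of the 14. WNT7A, a WNT ligand, had 8 and 5, and PTHLH, which encodes parathyroid hormone-related protein, had 6 and 16. CCBE1 had 6 and 9, with FOXA2 at 3 of the 6. TP63, the basal lineage regulator whose promoter was in neither list, had 10 and 10, with FOXA2 at 2 and JUN at 3 of the marked ones. The mitotic genes CDK1, NDC80 and INCENP had 5 and 14, 8 and 14, and 3 and 11, and ERCC6L had 5 and 7.

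The centres of the highest-scoring distal accessible H3K27ac regions within 50 kb of FOSL1, PTHLH and TP63 are shown because they differ in the motifs and factors they carry, a choice made after their values were seen. Each comes from the plus strand of hg19 and spans 100 bp on either side of a centre, and capitals mark AP-1 and forkhead motifs.
FOSL1, chr11:65683231-65683431, intergenic: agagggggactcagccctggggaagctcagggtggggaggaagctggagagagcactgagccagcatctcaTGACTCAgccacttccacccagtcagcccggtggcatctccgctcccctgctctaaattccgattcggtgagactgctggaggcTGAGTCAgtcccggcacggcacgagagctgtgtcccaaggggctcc
PTHLH, chr12:28135045-28135245, intergenic: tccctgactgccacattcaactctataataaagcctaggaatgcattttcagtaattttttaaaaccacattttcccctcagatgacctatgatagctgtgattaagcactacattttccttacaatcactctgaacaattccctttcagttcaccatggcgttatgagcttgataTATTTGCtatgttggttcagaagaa
TP63, chr3:189537963-189538163, intron: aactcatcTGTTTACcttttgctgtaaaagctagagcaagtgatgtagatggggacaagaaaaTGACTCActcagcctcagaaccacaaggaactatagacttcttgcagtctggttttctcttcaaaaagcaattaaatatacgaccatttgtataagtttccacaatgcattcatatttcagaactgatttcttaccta

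The region near FOSL1, chr11:65682979-65683682, held 2 AP-1 motifs, overlapped JUN and FOSL1 regions but no FOXA2 region, and lay 2500 bp from the start of C11orf68, its nearest gene. The PTHLH region, chr12:28134785-28135504, held 1 forkhead motif and no AP-1 motif in this window and overlapped FOXA2 and JUN regions. The TP63 region, chr3:189537771-189538354, held 1 motif of each kind and overlapped FOXA2 and JUN. Near PTHLH the highest-scoring accessible region without H3K27ac, chr12:28174716-28175028, scored 3435 against 3046 for the marked one and likewise overlapped FOXA2 and JUN. Both factors were thus present at accessible regions of this locus with and without a listed H3K27ac region.

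The genes with the most distal accessible H3K27ac regions were ANKRD30A (77), KCNMA1 (76), PARD3 (75), RP11-685N3.1 (69), HAS2 (66), CWH43 (62), MYC (61), TRPS1 (61), LRMDA (60) and REEP3 (59). The counts are not adjusted for the span of DNA nearest to a gene, which ran from 984 kb at HAS2 to 3273 kb at RP11-685N3.1. Among these 10 genes the counts did not follow that span. Per Mb KCNMA1 had 71.4 such regions, HAS2 67.1, ANKRD30A 66.7, TRPS1 33.6 and RP11-685N3.1 21.1. KCNMA1 encodes a potassium channel, PARD3 a cell polarity protein, HAS2 a hyaluronan synthase and TRPS1 a zinc-finger transcription factor. At HAS2 45.5% of its 145 distal accessible regions had the mark and at MYC, which encodes a growth-promoting transcription factor, 35.3%. JUN overlapped 36 of the 61 marked regions at MYC and FOXA2 25. At RP11-685N3.1 and CWH43, whose own promoters were accessible without H3K27ac, 36 of the 69 and 36 of the 62 regions were in places listed in 17 or more lists, and FOSL1 overlapped 51 at each. At the other 8 genes such places numbered 1 at KCNMA1 and 0 elsewhere. Of these 10 genes, 5 were on chromosome 10, and HAS2, MYC and TRPS1 were on chromosome 8. Those chromosomes held 2937 and 3106 of the 50118 distal accessible regions with H3K27ac. Copy number was not measured, and its part in this ranking was not tested. The genes with the most distal H3K27ac regions without ATAC were NUDT12 (55), CADM2 (52), SLC8A1 (49), ADGRL3 (48) and ANKRD30A (46).

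The highest-scoring region of each class outside places listed in 17 or more lists was as follows. At promoters with H3K27ac it was chr21:47604319-47605086 at SPATC1L, 768 bp wide, with an ATAC score of 26883 and JUN and FOSL1 regions. Among distal ones with the mark it was the NRP1 region chr10:33422908-33423587, with a score of 24481. At promoters without the mark it was chr2:88124415-88124850 at RGPD2, a member of a family of near-identical copies, so that its reads may come from other copies. Among distal regions without the mark it was chr13:110076472-110076727, 256 bp wide and 362330 bp from the start of IRS2. It scored 106787, overlapped all 3 factors and was listed in 13 of the 22 lists, and whether its reads map there uniquely was not tested. Among distal H3K27ac regions without ATAC it was chr18:23841147-23841365 in an intron near TAF4B, with an H3K27ac score of 3590, a FOSL1 region and 20912 bp to the nearest ATAC region.

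Across chromosomes 1 to 22 and X the share of distal accessible regions with H3K27ac ran from 20.4% on chromosome 20 (19.4 to 21.4%) to 30.0% on chromosomes 6 (29.1 to 31.0%) and 13 (28.5 to 31.4%). Chromosome 20 also had the most ATAC regions per Mb, 114, against 35.8 on chromosome 13 and 58.0 on chromosome 6, and had 36.1 H3K27ac regions per Mb. Copy number was not measured in these lists, and its part in these shares was not tested.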

How the data were processed

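ChIP-seq and ATAC-seq lists of enriched regions were used as deposited. Per the study's methods and the labels, the authors aligned reads to hg19 with BWA 0.7.17-r1188, handled alignments with SAMtools 1.9 and called regions with MACS2 2.1.4 (FastQC 0.11.9 is also named). Control libraries, pooling, MACS2 settings and any shift of ATAC reads were not given in the sources used here. The score that the authors deposited for each region is a whole number of at least 13 in both PC3 lists compared. From its range it was taken to be 10 times a −log10 q-value, and it was used only to rank regions within a list. The ATAC labels repeat the ChIP extraction text, whereas the methods describe a transposase protocol. The labels and the methods name different suppliers for the H3K27ac antibody, and the names under which both lists were deposited mention a control siRNA where the labels say vehicle.

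Groups followed the labels, with 1 list each. Overlaps of at least 1 bp, gaps, shares and motifs were computed with Python 3.11.15 and numpy 2.4.6, and figures with matplotlib 3.10.9. The functions were tested on simulated data. Starts and gene spans came from GENCODE 44 lifted to GRCh37, the assembly of hg19. A gene's distal regions are those whose centre is nearest to one of its protein-coding starts. Standardised differences average the difference within 10 deciles, weighted by their size. Without replicates no test was run.

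The named genes were 2 to 6 of each gene list with the genes the study examined first, the 10 genes with the most distal accessible H3K27ac regions, the 5 with the most distal H3K27ac regions without ATAC, and the genes nearest the highest-scoring region of each class and nearest the printed sequences, for which chromosome 8 was not searched. Further list genes were named, after their values were seen, where they complete a promoter state. Members and lists were chosen with earlier results of these data known. Alternatives changed the overlap, edges, score minimum, recurrent places, promoter and motif windows, FOXA2 list, forkhead motif and strata. Some genes of the lists are counted but not reported here by name.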

Additional observations from a re-analysis of the deposited data

How the results depend on the processing

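Of 55 alternative values over 8 results, 11 stayed within the 95% interval of the reported value, 44 moved outside it and none changed sign. Shares cannot change sign, so the last count tells only about the differences at distal regions. The differences at promoters, some of which changed sign when standardised, were not among the 8 results. Region counts are large, so small shifts leave these narrow intervals. Requiring an overlap of at least 50% of the shorter region gave 22.9% of accessible regions with H3K27ac and 49.2% of H3K27ac regions with ATAC, differences of 15.8 (FOXA2), 26.7 (JUN), 4.44 (FOSL1), 8.76 (AP-1 motif) and 1.21 points (forkhead motif), and 62.4% of genes with an accessible H3K27ac promoter. Extending H3K27ac regions by 500 bp on either side gave 37.7% and 90.5%, 21.3 (FOXA2), 27.7 (JUN), 3.27 (FOSL1), 14.4 (AP-1 motif) and 11.8 points (forkhead motif). Keeping ATAC and H3K27ac regions that scored 50 or more gave 39.0% and 77.0%, 20.9, 33.1, 4.24, 8.30 and 3.05 points in the same order, and 65.6% of genes. Leaving out places listed in at least 17 of the 22 lists gave 21.1 (FOXA2), 30.4 (JUN) and 3.16 points (FOSL1).

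With a promoter window of 2500 bp the FOXA2 difference was 22.2 points and the share of genes 69.1%. The other vehicle FOXA2 ChIPs, whose antibody was not labelled, gave FOXA2 differences of 35.7 and 33.1 points. A motif window of 250 bp on either side gave 19.8 points for AP-1, and TGTTTAC gave 1.21 points for forkhead. Standardised over ATAC score deciles the differences were 8.0 (FOXA2), 11.0 (JUN), 2.15 (FOSL1), 3.49 (AP-1 motif) and 3.29 points (forkhead motif). Over width deciles they were 10.1, 16.2, 2.46, 13.9 and 6.16 points, and over GC deciles 12.7 for AP-1 and 4.56 for forkhead.

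Depth is unknown, so absence from a list is not absence of the mark. No paired analysis was possible because each group compared held 1 list, apart from the alternative vehicle FOXA2 ChIPs with 2.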
